A study of Homo sapiens with 19 samples.

Results

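Mediator is the large complex that carries signals from DNA-bound activators to RNA polymerase II (Pol II). The genes described here are those whose RefSeq rows in the RNA table carry a protein-coding symbol of MED and a digit, with CDK8, CDK19 and CCNC added and antisense genes left out. They are 33 of 24076 genes in the table, and 31 of the 11671 genes with a mean level of at least 1 FPKM (fragments relative to transcript length and to the size of the library) over both libraries. The 33 genes were taken by symbol, with earlier results of these data known, and the 31 by their measured level of at least 1 FPKM. CDK19 and MED12L did not pass that level and were left out of counts over the 31 genes.

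The head and middle modules form the core that meets Pol II and the general transcription factors, MED14 is the backbone that joins the modules, and the tail is the main landing place of activators. The kinase module (CDK8 or CDK19, cyclin C, MED12 and MED13 or their paralogs) binds the core reversibly and competes with Pol II for it. MED26 joins core Mediator that lacks the kinase module, and it docks the super elongation complex, which carries the kinase P-TEFb. EP400 is the ATPase of a chromatin remodelling complex whose substrates include nucleosomes with the variants H3.3 and H2A.Z.

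The series holds 19 samples of U2OS, an established human osteosarcoma cell line. RNA-seq and the ChIP of Pol II, MED26, H3.3 and H2AZ had 1 library after mock siRNA (directed against GFP) and 1 after EP400 siRNA, both at 72 hr, and H3K18ac and H3K4me1 had 1 library each after mock siRNA. EP400 itself was immunoprecipitated in 3 samples whose titles name no siRNA and whose peaks came as 1 list, and the 4 inputs were not used here. No allele or other treatment is given, and all samples are 1 cell line. Because each condition has 1 library, no difference below could be tested, and each compares a pair of libraries. Less RNA per cell and fewer cells of a kind cannot be told apart in such bulk samples.

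The RNA of EP400 was 10 FPKM in the mock library and 2.28 FPKM after EP400 siRNA, which is 22.8% of mock as deposited. Its confidence limits overlapped (0.165 to 19.9 FPKM in mock and 0.162 to 4.41 FPKM after EP400 siRNA). Its log2 ratio was -1.75 as deposited and -1.24 with both libraries scaled to the same sum. The FPKM of all genes summed to 616046 in the mock library and 360029 after EP400 siRNA, so the median log2 ratio of the 11671 genes was -0.20 as deposited and 0.48 after both libraries were scaled to the same sum (TPM), a shift of 0.68. Ratios below are as deposited unless the rescaled value is named. Sequencing depth is unknown, since no counts came with these values. Of the osteoblast lineage markers, SPARC stood at 229 and 179 FPKM and COL1A1 at 376 and 60.8 FPKM, mock first, while ALPL (2.31 and 7.75 FPKM) and SPP1 (4.34 and 7.46 FPKM) were higher after EP400 siRNA. RUNX2 was at 1.51 and 0.697 FPKM, BGLAP at 1.0 and 0.325 FPKM, and COL1A2 near 0. The epithelial keratins KRT8 (369 and 115 FPKM) and KRT18 (519 and 316 FPKM) were high too, with EPCAM and CDH1 under 1 FPKM. Of the other epithelial markers, CLDN4 was at 63.4 and 10.9 FPKM and KRT14 at 6.22 and 0.991 FPKM. The 5 leukocyte markers summed to 0.353 and 0.334 FPKM and the 4 endothelial markers to 0.440 and 0.204 FPKM.

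Promoter sequences are printed for the genes on which the RNA and peak results turn: MED26, the chromosome 19 tail genes MED16 and MED25 with the lowest tail ratios, and CCNC, the gene with the highest ratio. Each is the 250 bases before the start of transcription in RefSeq (GRCh38.p14), 5′ to 3′ on the strand of the gene. Capitals mark matches on either strand to the words GGGCGG (SP/KLF), CCAAT (the CCAAT box), TATAAA (the TATA box), CCGGAAG (ETS), GCATGCGC (NRF1) and AAGATGGC (YY1). A match describes letters and is not a measured site. MED26 lies at chr19:16628205-16628454 (minus strand), MED16 at chr19:893188-893437 (minus), MED25 at chr19:49818039-49818288 (plus) and CCNC at chr6:99568815-99569064 (minus).
MED26: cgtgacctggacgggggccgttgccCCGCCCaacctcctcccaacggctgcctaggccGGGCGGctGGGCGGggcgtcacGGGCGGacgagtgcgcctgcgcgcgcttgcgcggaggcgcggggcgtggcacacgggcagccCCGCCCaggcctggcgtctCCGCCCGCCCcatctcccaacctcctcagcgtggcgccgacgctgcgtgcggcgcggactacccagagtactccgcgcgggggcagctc
MED16: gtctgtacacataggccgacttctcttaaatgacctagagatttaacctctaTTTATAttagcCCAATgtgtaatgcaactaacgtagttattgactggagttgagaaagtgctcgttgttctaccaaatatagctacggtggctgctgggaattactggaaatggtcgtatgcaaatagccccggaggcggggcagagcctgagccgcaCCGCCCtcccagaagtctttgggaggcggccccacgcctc
MED25: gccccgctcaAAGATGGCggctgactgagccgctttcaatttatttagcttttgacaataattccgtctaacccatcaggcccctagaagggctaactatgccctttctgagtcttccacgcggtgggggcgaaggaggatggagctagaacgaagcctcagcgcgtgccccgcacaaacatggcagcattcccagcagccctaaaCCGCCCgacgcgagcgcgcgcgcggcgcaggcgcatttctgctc
CCNC: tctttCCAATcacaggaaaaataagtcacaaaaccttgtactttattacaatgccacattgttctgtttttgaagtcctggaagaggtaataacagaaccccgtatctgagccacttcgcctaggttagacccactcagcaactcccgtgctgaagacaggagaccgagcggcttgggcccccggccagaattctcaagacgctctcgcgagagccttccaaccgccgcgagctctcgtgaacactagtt
The MED26 promoter was 78.0% G and C and held 7 SP/KLF words, against 50% in MED16, 59.2% in MED25 and 50.4% in CCNC. The median over the 25 Mediator genes with a promoter entry was 58.0%, as over all 27305 genes. MED16 held 1 CCAAT word, 1 TATAAA word on the other strand far from the start and 1 SP/KLF word, MED25 held 1 YY1 and 1 SP/KLF word, and CCNC held 1 CCAAT word. SP/KLF words stood in promoters of 16 of 25 Mediator genes (64.0%, against 46.2% of all 27305 genes), ETS words in those of 5 (20.0% against 10.2%) and CCAAT words in those of 10 (40.0% against 37.0%). A gene counted where any of its promoter entries held the word. The 27305 genes were not filtered by RNA level, unlike the genes analysed for RNA and peaks. The TATAAA word stood in promoters of 2 Mediator genes (8.0% against 13.0%), the NRF1 word in those of 2 (8.0% against 3.22%) and the YY1 word in those of 2 (8.0% against 1.64%).

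In this pair of libraries the median RNA ratio of Mediator genes differed between modules, and less so once centred by local gene density (below). As deposited, 4 of the 5 tail genes were lower, cyclin C and CDK8 were higher, and 6 of the 7 middle genes lay within 0.39 of 0 on the log2 scale. Of all 11671 genes, 6689 were lower and 4982 higher by the same sign of the ratio. The median log2 ratio of the 31 genes was 0.02 as deposited, against -0.20 over all genes, and 0.68 after rescaling, against 0.48. Over genes with a mean of 5 FPKM or more it was -0.44, so the sign of this median rests on the low genes. Ratios are EP400 siRNA over mock with 1 FPKM added to each, which understates the difference of low genes. As deposited, 2 of 31 genes were at least 2-fold higher (CCNC and, at the threshold, MED8), where 6.11% of all genes were, and 4 were at least 2-fold lower (MED22, MED16, MED25 and MED24), where 22.9% were. After rescaling, 9 were at least 2-fold higher (all genes 31.7%) and 0 lower (all genes 5.96%). The 9 were CCNC (2.29), MED8 (1.78), CDK8 (1.71), MED17 (1.66), MED23 (1.41), MED27 (1.35), MED6 (1.34), MED13 (1.25) and MED4 (1.11), of which CCNC and MED8 alone had passed as deposited. MED22 (-0.88), MED16 (-0.60), MED25 (-0.60) and MED24 (-0.40) stayed negative and no longer passed 2-fold. With ratios centred on the median of all genes, 4 were higher (all genes 10.8%) and 3 lower (all genes 15.6%). The authors' confidence limits, summed over the transcript rows of a gene, overlapped between the 2 libraries for every one of the 33 genes. The share over all genes was not computed, and the limits of EP400, the siRNA target, overlapped too (above). The overlap is therefore not read as a trait of Mediator genes. The summed FPKM of the 31 genes was 579 in mock and 417 after EP400 siRNA, or 72.0% of mock, against 58.3% over all genes.

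**Figure D1:**
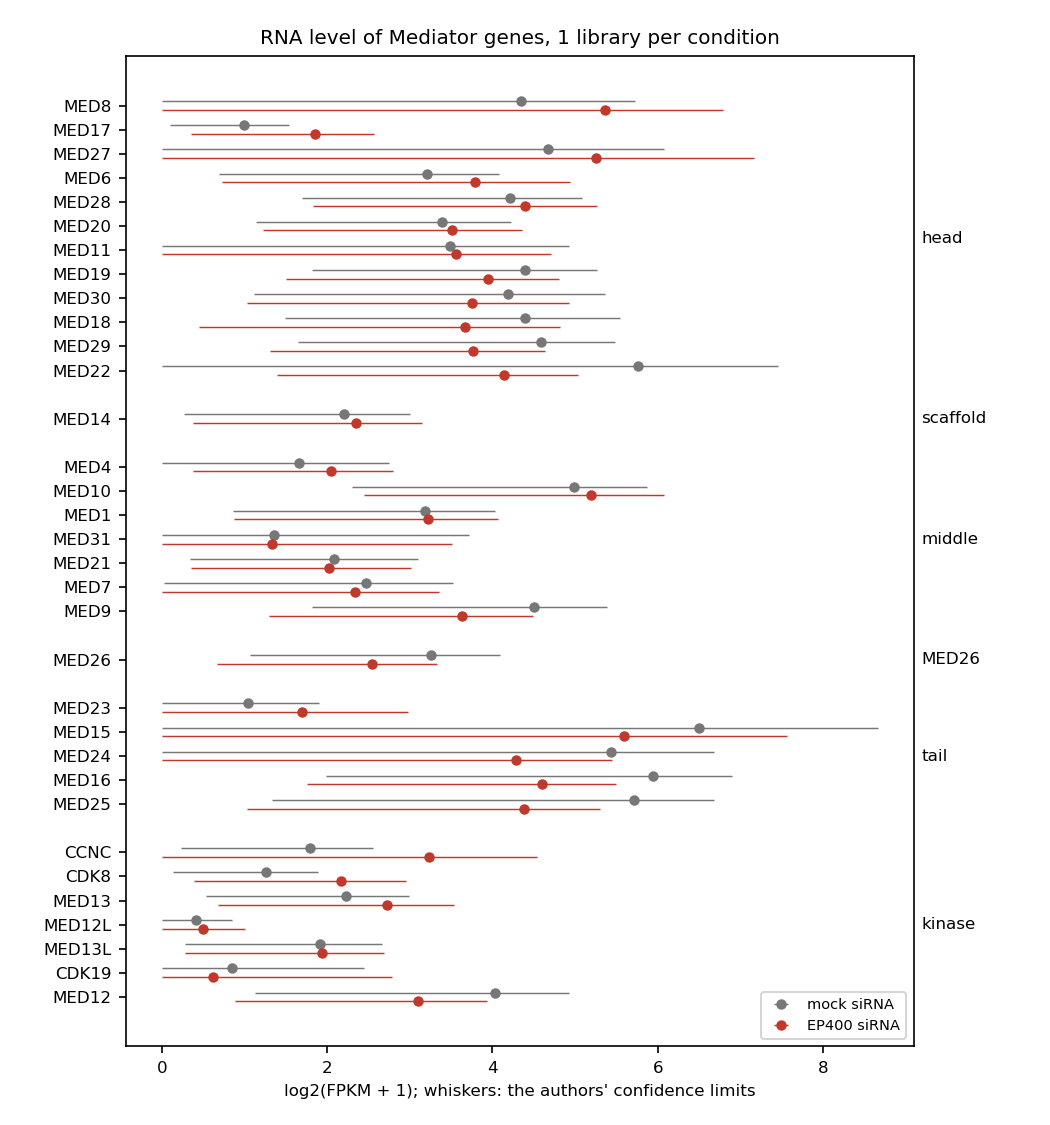
RNA level of the 33 Mediator genes by module on a log2(FPKM + 1) axis, grey for mock siRNA and red for EP400 siRNA, 1 library each. Whiskers are the authors' confidence limits per transcript row, summed per gene and thus wide for genes with several rows. They overlap for every gene, and MED22, MED16, MED25 and MED24 have the red point farthest left of the grey one.

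The head module holds the part of Mediator that first meets Pol II and TFIID. Its 12 genes are MED6, MED8, MED11, MED17, MED18, MED20 and MED22, with MED19 and MED27 to MED30 counted here as head although structures place some of them elsewhere. Their median log2 ratio was 0.10, and their summed level was 224 FPKM in mock and 202 FPKM after EP400 siRNA, 90.1% of mock. MED8 was 19.4 FPKM in mock and 40.0 FPKM after EP400 siRNA, a log2 ratio of 1.0. All 3 of its transcript rows were higher. MED8 holds MED18 and MED20 to the rest of the head. MED17, the central head subunit, was the lowest head gene in mock at 0.992 FPKM and was 2.60 FPKM after EP400 siRNA, a log2 ratio of 0.85. MED6, which borders the middle module, was 8.28 and 12.8 FPKM, mock first, and MED27 was 24.6 and 37.3 FPKM, log2 ratios of 0.57 and 0.58. In MED27 the row NM_004269 went from 14.0 to 29.1 FPKM while NM_001253881 went from 10.6 to 7.84 FPKM, so its rows moved apart. MED28 (17.6 and 20.0 FPKM), MED20 (9.47 and 10.4 FPKM) and MED11 (10.2 and 10.8 FPKM) were nearly level.

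Lower head genes were led by MED22, which was 53.1 FPKM in mock and 16.7 FPKM after EP400 siRNA, a log2 ratio of -1.61 and the lowest of all 31 genes. Most of it was 1 transcript row, NM_181491, at 50.6 and 16.7 FPKM. The shorter row, NM_133640, was 2.50 FPKM in mock and was listed at 0 after EP400 siRNA. MED29 was 23 and 12.6 FPKM, MED18 20.1 and 11.7 FPKM, MED19 20.0 and 14.4 FPKM and MED30 17.3 and 12.5 FPKM. These 4 genes had log2 ratios of -0.82, -0.74, -0.44 and -0.44. Under TPM scaling MED19 and MED30 turned to 0.30 each, while MED29 (-0.09) and MED18 (-0.01) came close to 0. The head thus spread from -1.61 to 1.0.

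MED14, the scaffold, was 3.60 FPKM in mock and 4.10 FPKM after EP400 siRNA, a log2 ratio of 0.15. Its locus on chromosome X is shared with another gene. The middle module forms the hinge and hook that hold the core to Pol II, and MED1 in it is the subunit that nuclear receptors bind. Its 7 genes had a median log2 ratio of -0.03 (0.60 after rescaling) and kept 93.0% of their summed FPKM, and none was past 2-fold in either direction. MED10, the most abundant of them, was 30.8 and 35.5 FPKM, and MED1 was 8.09 and 8.34 FPKM. MED21 (3.24 and 3.06 FPKM), MED7 (4.56 and 4.05 FPKM) and MED31 (1.56 and 1.51 FPKM) lay just under their mock levels as deposited and turned positive once centred on the median of all genes or rescaled (0.60, 0.54 and 0.56). MED21 and MED7 form the hinge of the middle module. MED9 was the exception, at 21.7 FPKM in mock and 11.4 FPKM after EP400 siRNA, a log2 ratio of -0.87. MED4 was 2.16 and 3.13 FPKM, a log2 ratio of 0.39. Its row NM_014166 was 1.19 and 3.13 FPKM, and NM_001270629, at 0.967 FPKM in mock, was listed at 0 after EP400 siRNA.

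MED26 was 8.54 FPKM in the mock library (authors' limits 1.09 to 16.0) and 4.81 FPKM after EP400 siRNA (0.593 to 9.03), a log2 ratio of -0.71. Of the 11671 genes, 33.6% had a lower ratio. After rescaling its ratio was -0.05, and relative to the median of the genes on chromosome 19 it was 0.33, so its sign rests on the scale. The other 3 Mediator genes of chromosome 19, MED16, MED25 and MED29, were lower as well. Over the 831 genes of that chromosome the median was -1.05, and 53.4% of them were at least 2-fold lower.

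The tail module stood lowest. Its 5 genes had a median log2 ratio of -1.14, and their sum went from 245 to 111 FPKM, 45.4% of mock. MED15, which binds activators such as SREBP, was the highest Mediator gene in both libraries, at 89.5 and 47.2 FPKM with a log2 ratio of -0.91. Of its 6 transcript rows, all were lower, and the leading row, NM_001293236, was 43.8 and 22.8 FPKM. MED16 was 60.5 FPKM in mock and 23.2 FPKM after EP400 siRNA, and MED25, the target of the viral activator VP16, was 51.6 and 19.8 FPKM. Both had a log2 ratio of -1.34, and each has a single transcript row. MED24, which binds MED16 and MED23 within the tail, was 42.1 and 18.5 FPKM, a log2 ratio of -1.14. MED23, known for its contact with E1A and ELK1, went the other way from 1.06 to 2.23 FPKM, a log2 ratio of 0.65, and was the lowest tail gene in both libraries. The 4 lower tail genes kept a negative ratio after rescaling (-0.60 to -0.15), where the tail median was -0.40. With MED27 to MED30 counted in the tail its median was -0.82. Without the 5 tail genes the other 26 had a median of 0.06 and kept 91.5% of their summed FPKM.

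The kinase module was led by its cyclin. CCNC was 2.47 FPKM in mock and 8.42 FPKM after EP400 siRNA, a log2 ratio of 1.44, above that of 97.9% of all genes. The difference stood mainly in 1 transcript row, NM_001013399, estimated at 0.00534 FPKM in mock and 4.6 FPKM after EP400 siRNA, while NM_005190 was 2.46 and 3.82 FPKM. The split between overlapping rows is the authors' estimate. CDK8, the kinase that cyclin C activates, was 1.40 and 3.51 FPKM, a log2 ratio of 0.91. MED13, which ties the kinase module to the core, was 3.69 and 5.61 FPKM with a ratio of 0.50, and its paralog MED13L was 2.78 and 2.83 FPKM with a ratio of 0.02. MED12, which activates the kinase, was the highest kinase module gene in mock at 15.3 FPKM and was 7.59 FPKM after EP400 siRNA, a log2 ratio of -0.93. The 5 genes measured had a median of 0.50 (0.08 with CDK19 and MED12L) and sums of 25.7 and 28.0 FPKM. MED12 was thus the only one of the 5 with a negative ratio, and it stayed at -0.23 after rescaling. CDK19 was 0.798 and 0.531 FPKM over 4 transcript rows, a ratio of -0.23 that turned to 0.11 after rescaling, and MED12L was 0.332 and 0.409 FPKM, so both paralogs were low in these cells, and CDK8 was the higher of the 2 kinases on the FPKM scale, which is per length.

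**Figure D2:**
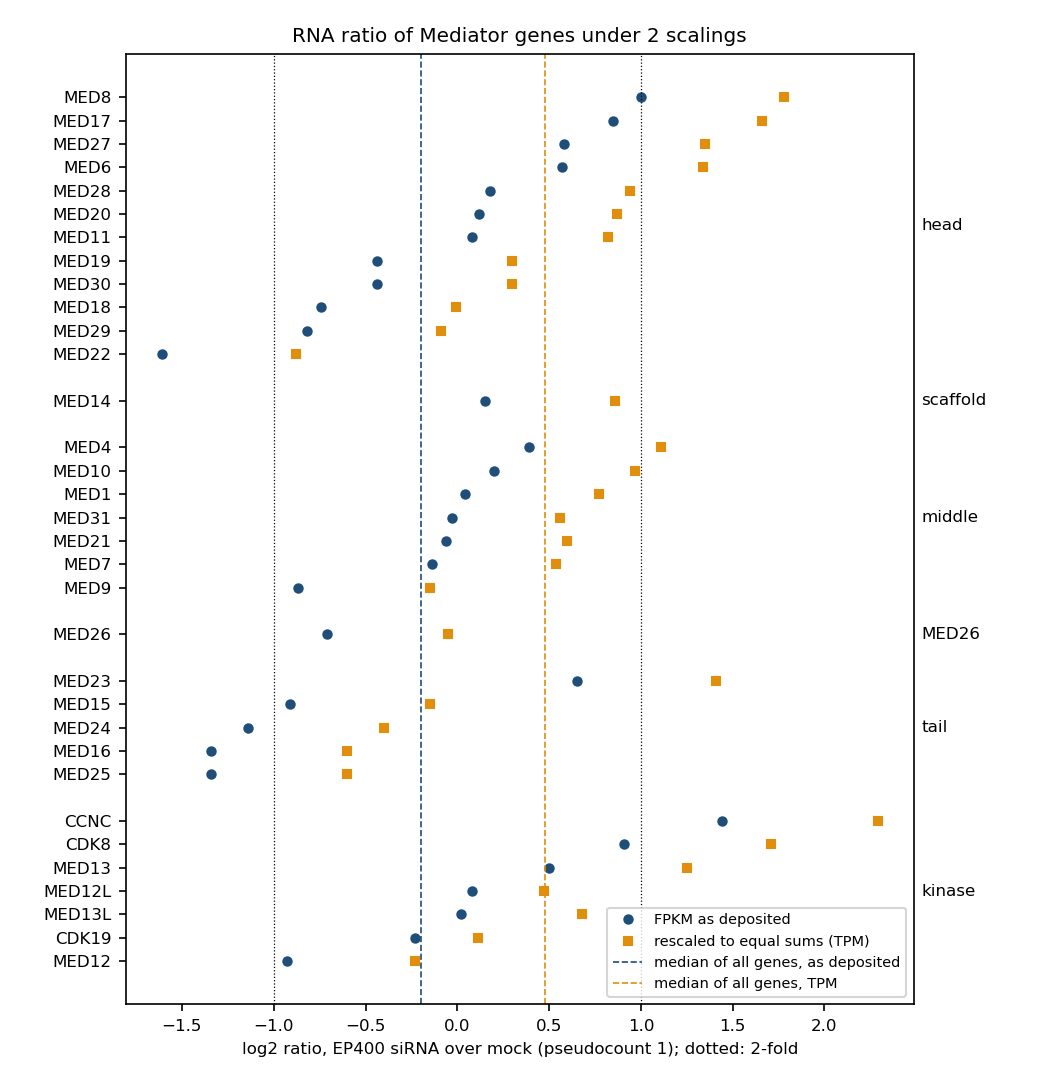
Log2 ratio of RNA, EP400 siRNA over mock, for the 33 Mediator genes by module, blue circles as deposited and orange squares after rescaling to equal sums. Dashed lines are the medians of all 11671 genes (-0.20 and 0.48) and dotted lines mark 2-fold, and the tail genes other than MED23 lie left of the all-gene median on both scales.

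The ratios followed the mock level and the local gene density, counted as loci within 500 kb. Across the 31 genes Spearman's rho of the ratio was -0.65 with mock FPKM, -0.56 with density and -0.18 with transcript length, and across all 11671 genes it was -0.56, -0.47 and 0.18. Mock FPKM enters both axes of the first value, and all points share the same pair of libraries. The 17 genes with at most 13 loci nearby, the median of all genes, had a median ratio of 0.20, with 2 genes at least 2-fold higher (8.72% of all genes on that side) and 0 lower (10.2%). The 14 genes in denser regions had a median of -0.73, with 0 higher (3.15% of all genes there) and 4 lower (37.4%). All genes on the same 2 sides had medians of 0.21 and -0.78. The tail genes had a median of 28.0 loci nearby, against 6.0 for the kinase module, 9.0 for the middle and 16.5 for the head. Among them MED25 (49), MED16 (40), MED24 (28) and MED15 (16) lay above 13, and MED23, the tail gene with higher RNA, had 4. The head genes MED29 (35) and MED11 (30) lay in dense regions as well, at ratios of -0.82 and 0.08. Relative to genes of like density the tail median was -0.30, and relative to genes of the same chromosome it was -0.29. MED16 and MED25 then stood at -0.30 each by density, and MED22 still at -0.80. CCNC remained high on both, at 1.22 by density and 1.57 by chromosome. MED12 was -1.15 by density.

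Neighbouring complexes were compared in the same libraries. Of the 31 general transcription factor genes, 4 were at least 2-fold higher (all genes 6.11%) and 4 lower (all genes 22.9%), with a median log2 ratio of 0.47. After rescaling 19 were higher (all genes 31.7%) and 0 lower (all genes 5.96%), with a median of 1.23. Centred on the median of all genes 9 were higher (all genes 10.8%) and 3 lower (all genes 15.6%). TAF13 (1.33 and 10.7 FPKM, ratio 2.33) and GTF2F2, the small TFIIF subunit (5.23 and 25.5 FPKM, ratio 2.09), were highest. TAF6 (116 and 39.0 FPKM, ratio -1.54) and TAF10 (218 and 82.7 FPKM, ratio -1.39), both TFIID subunits, were lowest. Of the 13 super elongation complex and P-TEFb genes 10 were measured above 1 FPKM, with a median of 0.44 (-0.55 over those of 5 FPKM or more), 1 higher (ELL2, 1.10 and 3.3 FPKM, ratio 1.04) and 1 lower (MLLT1, 45.2 and 16.2 FPKM, ratio -1.42). In P-TEFb the kinase CDK9 was 62.3 and 36.6 FPKM (ratio -0.75) and its cyclin CCNT1 1.53 and 3.37 FPKM (ratio 0.79), so the cyclin was higher and the kinase lower as deposited, while after rescaling CDK9 stood at 0.01 and CCNT1 at 1.57. The 7 genes of cohesin and its loader had a median of 0.10 (-0.32 over those of 5 FPKM or more) and none past 2-fold, with MAU2 (ratio -0.93) and SMC1A (-0.54, or 0.19 after rescaling) lowest and STAG1 (0.34) and STAG2 (0.25) highest.

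Peaks were read from the authors' lists (hg19, counted from 1), which give a position and no height. A gene was counted as having a peak where 1 overlapped a window reaching 2 kb to both sides of an end of its locus, a cluster of overlapping transcripts with no strand in the table. Both ends therefore count, and 7 of the 33 genes share a locus with another gene. The mock lists held 30760 Pol II, 27006 MED26, 79838 H3.3 and 58082 H2AZ peaks, and those after EP400 siRNA 20987, 24366, 41439 and 26526. A shorter list can come from a shallower library, so losses are read beside those over all genes.

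In mock cells the ends of Mediator genes were marked by Pol II, MED26 and H2AZ nearly throughout. Pol II peaks stood at all 31 genes (88.0% of all genes), MED26 peaks at 30 (80.7%), with MED27 the 1 without, and H2AZ peaks at 30 (77.1%), with MED14 the 1 without. This holds for locus ends. Over the whole MED14 locus, shared with another gene, 2 H2AZ peaks covered 1100 bp in mock. H3.3 peaks stood at 22 (70.3%), H3K18ac peaks, a mark of active promoters and enhancers, at 20 (74.6%) and H3K4me1 peaks, a mark of enhancers, at 11 (31.0%). The H3.3 gaps included 4 of the 7 middle genes (MED4, MED7, MED10 and MED31) and CCNC in the kinase module. Where RefSeq gives a strand for the 23 genes matched, Pol II stood on the start side in 23 and on the far side in 6, against 86.2% and 28.1% of 9086 genes.

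EP400 peaks stood at the ends of 12 of 31 genes (38.7%, against 36.0% of all genes): MED6, MED8, MED17, MED19, MED20, MED22 and MED30 in the head, MED1 and MED10 in the middle, MED15 and MED16 in the tail, and MED13 in the kinase module. MED26 had none. The widest cover was 550 bp at MED22, and 5 of the 12 held 50 bp, the step of that list. RNA ratios of the 12 genes had a median of 0.08 with 1 higher and 2 lower, and those of the 19 others a median of -0.03 with 1 higher and 2 lower. All genes with an EP400 peak had a median of -0.19, with 230 higher and 957 lower of 4204, and those without a median of -0.21, with 483 higher and 1720 lower of 7467. In MED16 the EP400 peak (chr19:869851-869900) lay near the low end of the locus, while the gene runs on the minus strand from the high end.

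After EP400 siRNA, Pol II peaks were left at 25 of 31 genes (82.1% of all genes) and absent from MED6, MED18, MED27 and MED28 in the head, MED21 in the middle and MED24 in the tail. That is 19.4% of the genes with a mock peak, against 7.59% over all genes, with a peak at either end counted. MED1 counts as keeping Pol II, but its mock peaks at the high end of the locus were absent after EP400 siRNA. The 363 bp left there lay outside the low end. On the start side alone, Pol II stood at 23 of the 23 genes with a strand in mock and at 19 after EP400 siRNA. Over all genes with a strand these shares were 86.2% and 79.9%. The 6 genes without a Pol II peak at either end had short mock cover, from 200 bp at MED24 to 600 bp at MED21. Mock cover was as short at MED14 (306 bp), MED9 (400 bp), MED4 (500 bp) and MED23 (600 bp), which kept a peak. In RNA, MED18 and MED24 of these had log2 ratios of -0.74 and -1.14, and MED6 and MED27 of 0.57 and 0.58, so the loss of a Pol II peak did not go with 1 direction of RNA. Covered Pol II length at the ends was shorter at 28 genes, where 75.7% of all genes had less. It was longer at MED9 alone (400 and 434 bp), where 8.51% had more. In sum it went from 33274 to 16924 bp over the 31 genes, 50.9% of mock against 65.1% over all genes. The added length at MED9 was the edge of a peak outside the high end of its locus, and its low-end peak was 400 bp in both lists. CCNC, whose RNA was higher, went from 900 to 400 bp of Pol II, and CDK8 from 1100 to 600 bp. MED16 went from 3200 to 1800 bp and MED25 from 1100 to 900 bp. Pol II cover was thus shorter at Mediator genes with higher RNA as well as at those with lower RNA.

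MED26 peaks were lost at these genes about as often as over all genes. They stood at 29 of 31 after EP400 siRNA (77.4% of all genes). CDK8 (400 bp in mock) and MED14 (6 bp in mock) had none at their ends, which is 6.67% lost against 7.55% over all genes, and MED27 gained 100 bp. Over the whole MED14 locus, MED26 peaks covered 906 bp in mock and 500 bp after EP400 siRNA, so MED26 was not absent from it. Covered length was shorter at 19 genes (all genes 52.7%) and longer at 6 (all genes 19.4%), and in sum 74.1% of mock against 80.1% over all genes. The head kept 84.9% of its MED26 cover and the tail 79.4%, the kinase module 61.8% and the middle 58.3%. At MED7 it went from 1400 to 300 bp and at MED19 from 1100 to 500 bp, while MED29 held 1903 bp in both libraries and CCNC 700 bp in both. The RNA of MED26, the protein this antibody is raised against, was itself lower after EP400 siRNA as deposited (above), and its part in these values was not tested.

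H2AZ peaks were left at 24 of 31 genes (56.5% of all genes). The 6 that lost them were MED17, MED19, MED20 and MED22 in the head, MED26, and CCNC. That is 20.0% of genes with a mock peak, against 28.7% over all genes. Cover was shorter at 26 genes (all genes 67.9%) and longer at 3 (all genes 5.83%), namely MED15, MED28 and MED30, and in sum it was 45.4% of mock, against 43.1%. All 7 middle genes and all 5 tail genes kept an H2AZ peak. MED6 had the longest cover, 1507 bp in mock and 900 bp after EP400 siRNA.

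H3.3 peaks were left at 12 of 31 genes (34.9% of all genes). The 12 that lost them were 54.5% of the 22 with a mock peak, against 58.3% over all genes, and MED23 and MED30 gained one. Cover was shorter at 19 genes (all genes 63.2%) and longer at 4 (all genes 11.0%), and in sum 34.6% of mock against 19.7%. By module the tail went from 7239 to 200 bp, with MED15 (3200 bp), MED16 (2139 bp) and MED25 (1400 bp) left at 0. The head went from 7947 to 1100 bp, and MED29 alone from 3336 bp to 0. The middle went from 3037 to 1712 bp, nearly all of it at MED1 (2237 and 1712 bp). The kinase module went from 2404 to 2500 bp with MED13 from 800 to 2500 bp, while CDK8, MED12 and MED13L were left at 0, and MED14 went from 300 to 2000 bp. By cover the tail was left with 2.76% of mock, MED26 with 9.23% and the head with 13.8%, and within the tail MED23, the gene with higher RNA, was the 1 that gained an H3.3 peak (100 bp). Of 69 mock H3.3 peaks at these ends 5 (7.25%) overlapped a peak after EP400 siRNA, against 7.60% over all genes. Mock peaks at the 12 genes that lost H3.3 are among the 69 and could not overlap one. The share thus does not describe the genes that kept H3.3 alone. The same share was 64.4% for Pol II, 74.4% for MED26 and 66.7% for H2AZ, against 69.8%, 69.8% and 48.4% over all genes.

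**Figure D3:**
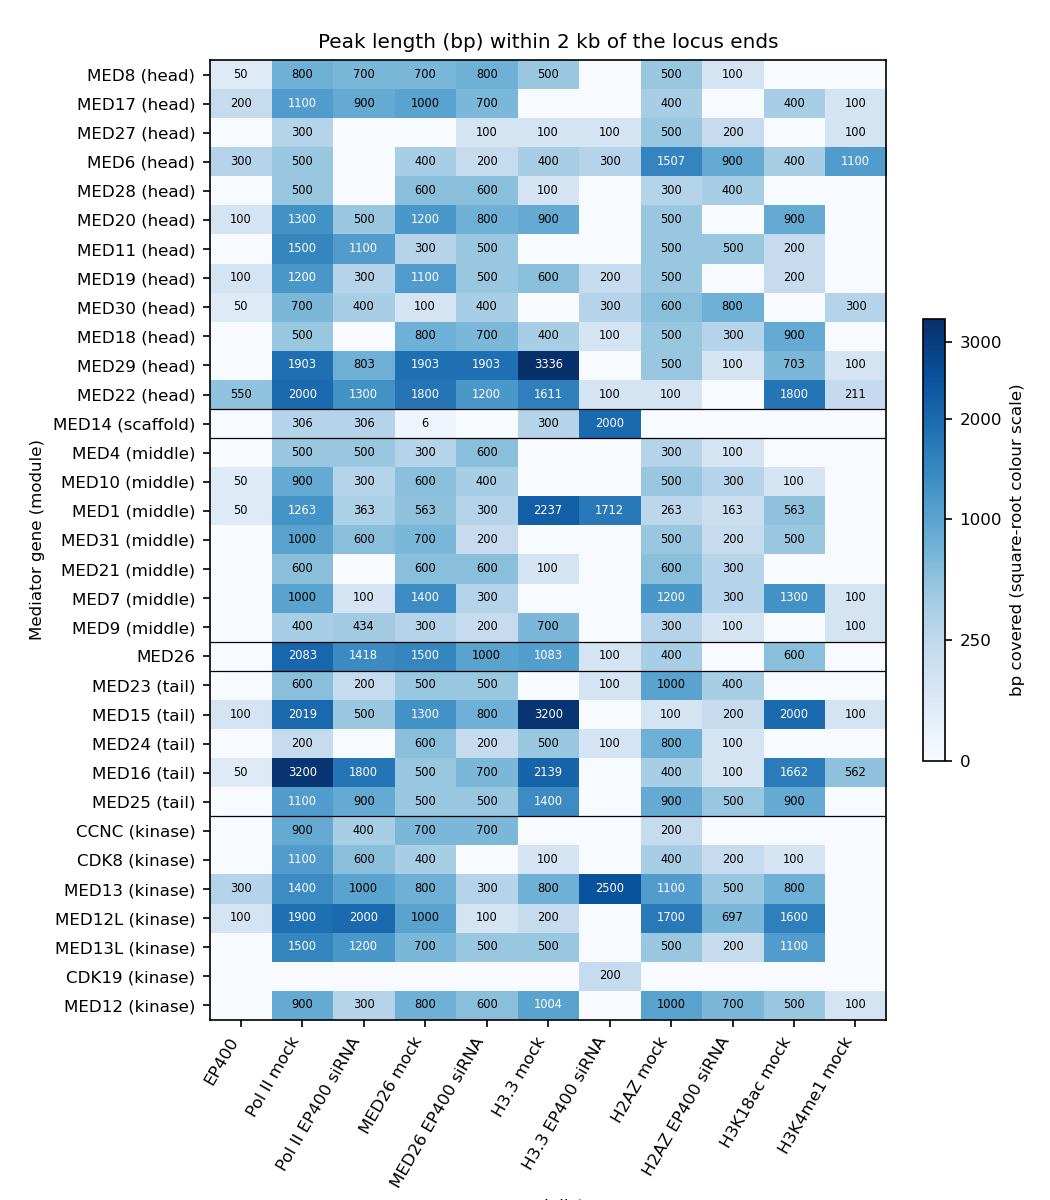
Peak length in bp within 2 kb of the locus ends of the 33 Mediator genes (rows, by module) in the 11 peak lists (columns), 1 list each, on a square-root colour scale with empty cells at 0. H3.3 after EP400 siRNA is empty for 3 of the 5 tail genes and reaches 2500 bp at MED13, while both MED26 columns are filled at 28 of the 31 genes analysed.

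At its own locus (chr19:16685718-16739015 in hg19) MED26 had less cover of all 4 antibodies. Pol II cover at the ends was 2083 bp in mock and 1418 bp after EP400 siRNA, and the main peak narrowed from chr19:16738201-16740100 to chr19:16738401-16739800, at the high end where the minus-strand gene starts. The MED26 protein had a peak there of 1500 bp in mock (chr19:16738501-16740000) and 2 peaks of 1000 bp in sum after EP400 siRNA. H3.3 went from 1083 to 100 bp. The H2AZ peak of 400 bp, inside the Pol II peak, was gone. At CCNC (chr6:99990263-100016690) Pol II narrowed from chr6:100016201-100017100 to chr6:100016301-100016700, the MED26 peak was the same 700 bp in both lists, H2AZ went from 200 bp to 0, and no H3.3 peak was listed in either condition. As deposited, the RNA of MED26 was lower and that of CCNC higher, with less Pol II and H2AZ cover at both. The MED26 ratio was -0.05 after rescaling. Less cover at the locus ends was common, at 75.7% of all genes for Pol II and 67.9% for H2AZ.

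Over whole loci, with 2 kb added at each end, 8 of the 17 genes of sparser regions had more H3.3 after EP400 siRNA and 5 less, and of the 14 in denser regions 0 had more and 11 less. Over all genes, 2040 of 6205 had more and 2922 less on the sparser side, and 417 of 5466 had more and 4521 less on the denser side. In MED13 it went from 11 peaks (1900 bp) in mock to 63 peaks (21100 bp) after EP400 siRNA, and in MED13L from 4 peaks (1100 bp) to 38 (7600 bp). MED14 went from 500 to 3900 bp and MED6 from 400 to 1300 bp. These are genes of sparse regions, and the paralogs MED13 and MED13L span long loci. The opposite was seen in MED15, from 56 peaks (21700 bp) to 8 (2100 bp), and in MED16, from 20 peaks (6039 bp) to 0. MED29 (4338 bp) and MED25 (1600 bp), also in dense regions, were left at 0. On the sparser side MED12 (1704 bp), MED8 (800 bp), MED9 (700 bp), CDK8 (100 bp) and MED28 (100 bp) were left at 0 too. Over the 17 genes with at most 13 loci nearby the cover went from 7704 to 35900 bp, 466% of mock, against 80.7% over all genes of that side, and without MED13 and MED13L it went from 4704 to 7200 bp. Over the 14 genes in denser regions it went from 44334 to 5100 bp, 11.5% of mock against 15.5%. In all, 8 of 31 genes had more H3.3 over the locus (all genes 21.1%) and 16 less (all genes 63.8%). The RNA of MED13 and MED13L was 0.50 and 0.02 in log2 ratio.

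**Figure D4:**
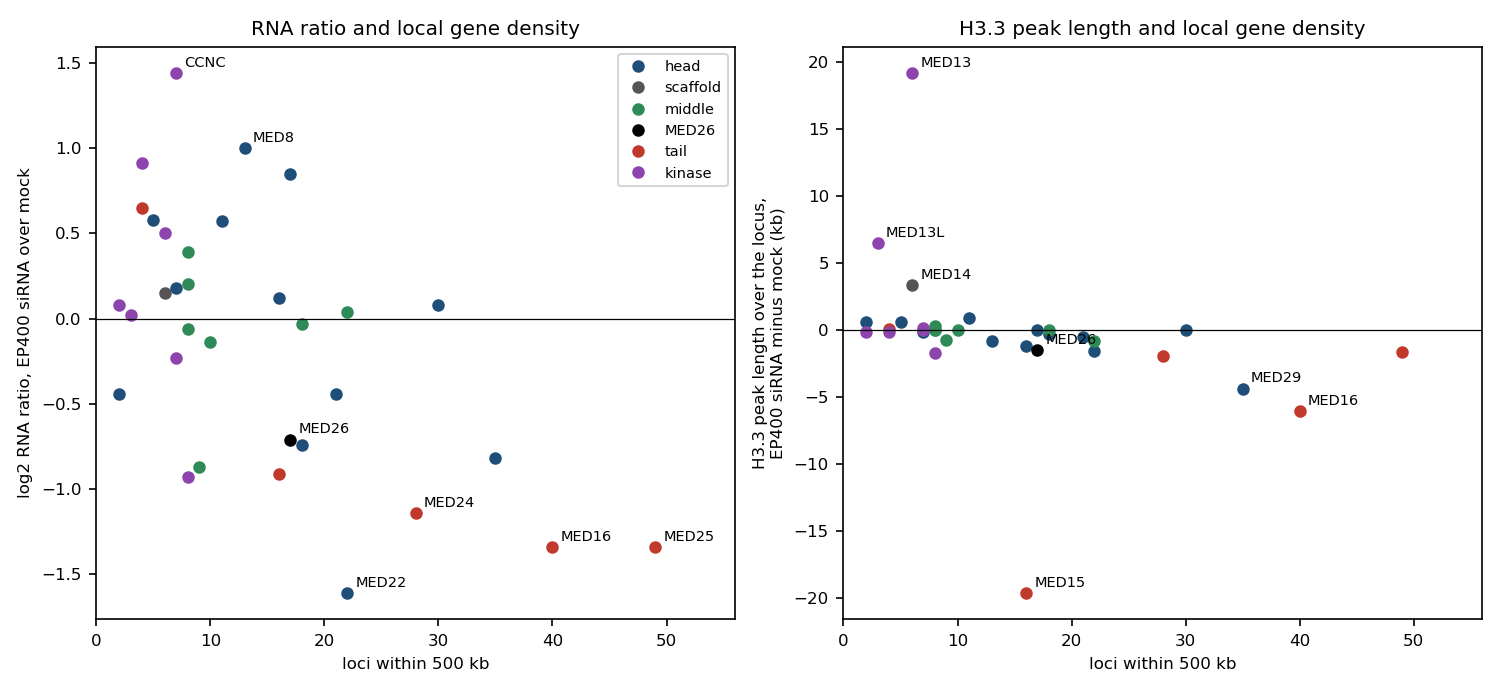
Log2 RNA ratio (left) and the difference in H3.3 peak length over the locus in kb, EP400 siRNA minus mock (right), against the number of loci within 500 kb, 1 point per Mediator gene coloured by module. On the right, points above 0 lie among genes with few loci nearby, led by MED13 and MED13L, and MED15 and MED16 have the largest losses.

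The 2 paralogs under 1 FPKM had peaks as well. The CDK19 locus (chr6:110931181-111216915), shared with AMD1, had no Pol II peak at its ends but 2 inside it, which covered 3900 bp in mock and 3700 bp after EP400 siRNA, and each held an EP400 peak. Which of the 2 genes such a peak belongs to cannot be told apart. The MED12L locus (chr3:150804585-151176497) holds 7 genes, and its low end had a Pol II peak of 1900 bp in mock and 2000 bp after EP400 siRNA, an EP400 peak, and MED26 cover that went from 1000 to 100 bp. Pol II cover at both loci was thus close to its mock length.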

How the data were processed

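RNA values are FPKM per RefSeq transcript row, deposited by the authors with confidence limits and a status, per the file headers. The submitters' processing notes name hg19, TopHat2 2.0.8, Bowtie 0.12.9 and Cuffdiff 2.0.2. Not given in the sources used here are the annotation release, the scaling, and the peak caller with its control. Symbols came by RefSeq identifier for 47551 of 48669 rows (97.7%) from a GRCh38 table used for names and strand.

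Rows under 200 nt (2116) and the 122 genes whose estimate had failed were dropped, and rows and their confidence limits were summed per gene. Ratios compare FPKM after EP400 siRNA with mock as log2, 1 FPKM added to both, for genes of mean FPKM 1 or more, called at 2-fold. Peak lists hold positions alone, and chr23 and chr24 in them were read as X and Y. Peaks were counted at 1 bp of overlap with the 2 kb around locus ends. Python 3.11.15, pandas 2.3.3 and numpy 2.4.6 were used, and the scripts were tested on simulated data.

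The genes and lists were chosen with earlier results of these data known. Named are all Mediator genes, EP400 and up to 4 genes of each neighbouring list with the largest ratio in size. Alternatives covered pseudocounts, low-value filters, short rows, scaling, centring, module assignment, windows, overlap, peak width and list length. All comparisons are descriptions with 1 library per condition. The sequences cover 25 of the 33 genes.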

Additional observations from a re-analysis of the deposited data

How the results depend on the processing

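Of the values recomputed for the main results 204 moved little and 58 moved more, and the medians of all Mediator genes, the middle, super elongation and cohesin genes changed sign under at least 1 setting. With a pseudocount of 0.1, 5 Mediator genes were at least 2-fold higher (4 with 0.5), as were 7 general transcription factors and 3 super elongation genes (median 0.56), and 1 cohesin gene was lower. Median centring gave medians of 0.22 (Mediator), 0.30 (head), 0.17 (middle), -0.94 (tail), 0.69 (kinase), 0.66 (general factors, 9 higher), 0.64 (super elongation) and 0.30 (cohesin), with 4 Mediator genes higher. Rescaling to equal sums gave 0.68 (Mediator, 9 higher and 0 lower), 0.85 (head), 0.60 (middle), -0.40 (tail), 1.25 (kinase), 1.23 (general factors, 19 higher and 0 lower), 1.18 (super elongation, 6 higher and 0 lower) and 0.79 (cohesin, 1 higher). Without a filter the kinase median was 0.08 and that of super elongation genes 0.25. At a mean FPKM of 5 or more, medians were -0.44 (Mediator), 0.26 (kinase), 0.66 (general factors), -0.55 (super elongation, 0 higher) and -0.32 (cohesin). With MED27 to MED30 in the tail its median was -0.82. The next settings were chosen after seeing the data. Centred by chromosome, medians were 0.13 (Mediator, 4 higher and 1 lower), 0.24 (head), -0.29 (tail) and 0.65 (kinase), and by gene density 4 were higher and 2 lower, with 0.30 (head), -0.30 (tail) and 0.16 (kinase). For the pseudocounts, the filters and the centrings by chromosome or density, the share over all genes was not computed. Counts under those settings therefore have no background beside them. Over members in a locus of their own the Mediator median was -0.10. The number of genes that lost MED26 was 1 with ends of 1 kb or 5 kb, whole loci, an overlap of 100 bp, or own loci, and 4 genes had H3K4me1 when only peaks at or above the median width were kept. The cause of these moves was not tested. Over the scalings and centrings, 20 of 31 genes kept their sign and 11 did not.

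No paired analysis was possible because only the EP400 immunoprecipitations and inputs share numbers, the former came as 1 list, and every other group is 1 library. For the same reason no replicate was left out. Depth is unknown, peak lists carry no height, and a locus gives no strand, so starts, ends and overlapping genes cannot be told apart.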
